A study of Mus musculus with 4 samples.

Results

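The genes described here encode the ubiquitin-editing protein A20, its binding partner, the deubiquitinase CYLD, the ubiquitin ligase Pellino-1, the adaptor Act1 and 5 of the TNF receptor-associated factors (TRAFs). The 10 members, Tnfaip3, Tnip1, Cyld, Peli1, Traf3ip2, Traf1, Traf2, Traf3, Traf5 and Traf6, were chosen by symbol, and each matched 1 of the 50600 genes listed. They were measured by RNA sequencing in 4 libraries of mouse Th17 cells, the IL-17-secreting class of CD4 T cells. The label given to the set also names the CBM complex, but none of its subunits is among the members, so Bcl10 and Malt1 are given as context.

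All 4 libraries carry the same description: primary Th17 cells, strain C57BL/6NJ, untreated beyond a linked protocol for differentiating CD4 T cells. Sex and age are not given, and a single donor label is shared. They form 1 group with no contrast, so genes were compared within libraries and libraries with each other. The labels number them as biological replicates but do not tie them to animals or cultures, so p-values describe only how these libraries agree or differ.

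TRAF proteins are docking and ubiquitin ligase proteins that carry signals from TNF receptor family members, and TRAF6 also from IL-1, Toll-like and IL-17 receptors. In T cells, antigen receptor signalling passes through the CBM complex, with BCL10 and the protease MALT1, to NF-kappaB, a route in which TRAF6 takes part. A20, with its partner ABIN1 (the product of Tnip1), and CYLD remove or edit the ubiquitin chains on which these pathways depend. Act1, encoded by Traf3ip2, couples the IL-17 receptor to TRAF proteins.

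Stretches of promoter are shown first, because A20 and its partner are textbook feedback targets of NF-kappaB, and because the member rule did not use sequence. RefSeq windows on GRCm38.p6, from 250 bases before to 50 after a gene start, were found for 9 of the 10 members (10 windows, with 2 for Tnfaip3), and not for Traf3ip2. They were searched on both strands for the kappaB consensus, the site that NF-kappaB dimers bind, with overlapping matches merged. It was found in 4 of the 10 windows, 1 for each of 4 members, against 8.46% of all 32851 windows of the same length. The stretches that hold it read 5′ to 3′ on the gene's strand, with the matches in capitals.
Tnfaip3: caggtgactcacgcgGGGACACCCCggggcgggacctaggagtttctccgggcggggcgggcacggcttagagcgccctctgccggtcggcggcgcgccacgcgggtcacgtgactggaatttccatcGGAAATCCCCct
Tnip1: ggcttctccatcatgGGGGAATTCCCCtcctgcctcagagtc
Cyld: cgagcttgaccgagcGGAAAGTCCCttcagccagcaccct
Traf3: gcccaggcggcccgcGGGGATTTCC
The Tnfaip3 stretch is chr10:19015411-19015550 on the minus strand, and its matches end 116 and 3 bases before the RefSeq start. That stretch lies inside the gene as the deposited files list it, which extends to 19015657, so the annotated starts differ. Its second RefSeq start had no match. The Tnip1 stretch is chr11:54962972-54963013 (minus), the Cyld stretch chr8:88696858-88696897 (plus) and the Traf3 stretch chr12:111166345-111166369 (plus), with matches ending 47, 146 and 1 bases before the start. The Traf3 window was the richest in G and C among the members, at 84%. The Traf1 window, at 48.7%, and the second Tnfaip3 window, at 47.0%, lay below the median of 52.7% over all windows. The other member windows lay above it, at 56.7% or more. The matches are mostly G and C, and the comparison with all windows was not matched for this content, whose part was not tested. A match describes these letters only, and binding was not measured.

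Library totals were between 28555677 and 58104663 fragment counts, and a count of 0 allows up to 3 counts, or between 0.0516 and 0.105 CPM (counts scaled to library size), counting error only. Markers of Th17 cells and of CD4 T cells were present at 1 TPM (transcript abundance scaled by gene length and library size) or more in every library, 8 of 8 and 5 of 5. Markers of B cells, macrophages and monocytes, neutrophils and stromal or epithelial cells were detected in 0 of 5, 0 of 5, 0 of 4 and 0 of 4 cases and summed to at most 1.91 TPM per list. CD8 T cell, dendritic cell and NK cell lists each had 1 marker detected (Cd8b1, H2-Ab1 and Klre1) and summed to at least 9.37, 2.00 and 1.07 TPM in each library. Gzmk, Ms4a1, Lyz2, Fcgr1, Siglech, Ncr1, Klrb1c, S100a8 and S100a9 had 0 counts in every library. The libraries divide by sex-linked genes: Xist was between 131 and 132 TPM in replicates 1 and 2 and between 0.329 and 0.496 in replicates 3 and 4. Ddx3y, on the Y chromosome, was between 0.347 and 0.428 TPM in replicates 1 and 2 and between 57.3 and 58.9 in replicates 3 and 4. These values go against a single animal as the source of all 4 libraries, whatever the shared donor label means. What part this has in the spread of the members between libraries was not tested.

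All 10 members were at 1 TPM or more in every library, which held for 47% of the 21764 protein-coding genes, and all 10 were at 5 TPM or more, which held for 40.5%. The members were chosen with earlier results of these data known, so these shares are no independent comparison. The highest was Tnip1 at 132 ± 2.73 TPM (SD, n = 4) and the lowest Traf5 at 11.1 ± 0.922 TPM. Their median was 36.0 TPM, against 31.3 TPM for the 10223 protein-coding genes detected in the same way. By the deposited lengths, as a set they thus stood near the middle of what these cells express. Single members ranged from percentile 24.8 (Traf5) to 85.1 (Tnip1) of those genes. The median of all detected genes was not taken with other lengths. In bulk RNA, fewer cells that express a gene and less of its RNA per cell cannot be told apart. The members summed to between 515 and 541 TPM in a library.

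**Figure D1:**
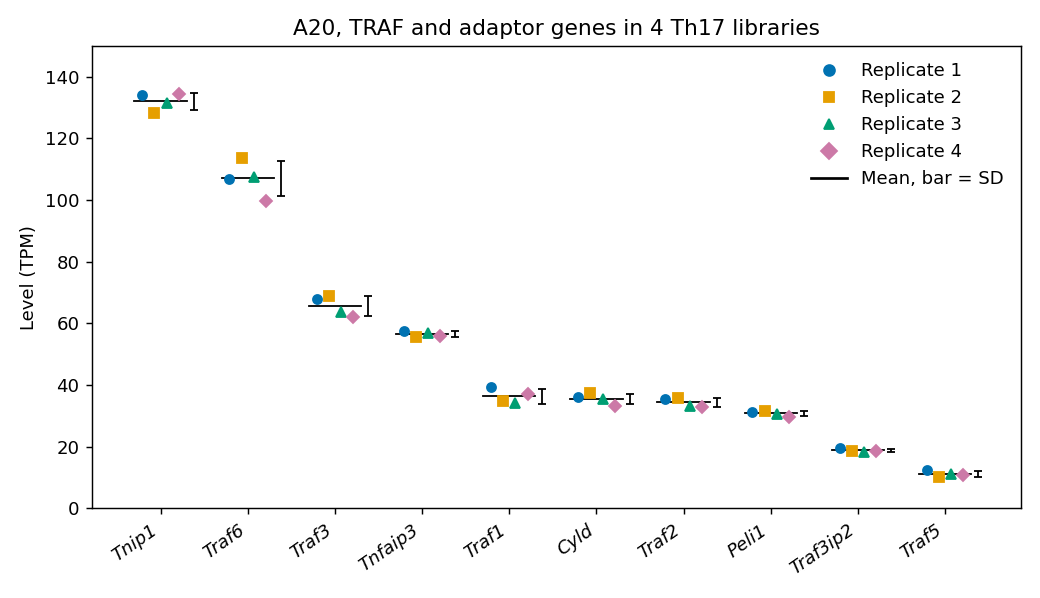
Level in TPM (linear axis) of each member in the 4 Th17 libraries, ordered by mean. Points are libraries, the line is the mean and the bar beside it the SD. Tnip1 and Traf6 stand at 99.9 TPM or more in every library, and Traf5 at 12.4 TPM or less.

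The A20 module came first by role. Tnip1 (ENSMUSG00000020400.17, chromosome 11, 54910785 to 54962917, minus strand, mm10), whose product ABIN1 binds A20 and ubiquitin chains, was at 134, 128, 132 and 134 TPM in replicates 1 to 4. Tnfaip3 (ENSMUSG00000019850.11, chromosome 10, 19000910 to 19015657, minus strand), the A20 gene, was at 57.5, 55.5, 57.0 and 56.0 TPM. The ranges are far apart, and Tnfaip3 had the smallest coefficient of variation of all members, 1.64%, beside 1.45% from counting noise alone. Within libraries, Tnfaip3 was below Tnip1 in 4 of 4, with a log2 ratio of -1.22 ± 0.03 (-0.19 in CPM). Both genes hold a kappaB match in the promoter stretches above.

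Cyld (ENSMUSG00000036712.15, chromosome 8, 88697028 to 88751945, plus strand), a deubiquitinase of the same pathways and the gene mutated in human cylindromatosis, was at 36.1, 37.3, 35.4 and 33.1 TPM. Replicate 4 was the lowest. Tnfaip3 exceeded Cyld in 4 of 4 libraries per length, with a log2 ratio of TPM of 0.67 ± 0.08. In CPM, with no scaling for length, the order turned, to -0.13, since Cyld has 12576 annotated exon bases against 7226 for Tnfaip3. Peli1 (ENSMUSG00000020134.13, chromosome 11, 21091291 to 21150323, plus strand), a ligase that restrains mouse T cell activation, was at 31.4, 31.6, 30.7 and 29.8 TPM, close together in all 4 libraries.

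Among the TRAF genes, Traf6 was the highest member. Traf6 (ENSMUSG00000027164.8, chromosome 2, 101678429 to 101701669, plus strand), the ligase of the IL-1 and Toll-like receptor pathways, was at 107, 114, 108 and 99.9 TPM. Replicate 2 was the highest and replicate 4 the lowest. Traf3 (ENSMUSG00000021277.16, chromosome 12, 111166370 to 111267153, plus strand), which keeps the kinase NIK at low levels, followed at 68.0, 68.8, 63.8 and 62.0 TPM, with replicates 1 and 2 above replicates 3 and 4.

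Traf1 and Traf2 could not be ordered by the deposited lengths. Traf1 (ENSMUSG00000026875.14, chromosome 2, 34941750 to 34961772, minus strand), a TRAF without the RING domain of the others, was at 39.5, 34.7, 34.3 and 37.2 TPM. Traf2 (ENSMUSG00000026942.13, chromosome 2, 25517982 to 25546940, minus strand), which brings the cIAP ligases to TNF receptors, was at 35.5, 35.7, 33.4 and 33.1 TPM. The ranges overlap, and Traf1 was higher in 3 of 4 libraries. Traf5 (ENSMUSG00000026637.13, chromosome 1, 191997205 to 192092559, minus strand), reported in mouse CD4 T cells to limit IL-6 signalling, was the lowest at 12.4, 10.2, 11.1 and 10.8 TPM, and its range lay below that of every other member.

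The adaptor gene Traf3ip2 (ENSMUSG00000019842.6, chromosome 10, 39612934 to 39655307, plus strand) was at 19.5, 18.7, 18.3 and 18.6 TPM, close together and above Traf5 in 4 of 4 libraries. Its coefficient of variation of 2.77% was no larger than the 3.50% that counting noise gives. An antisense gene, E130307A14Rik, shares 293 exon bases with it on the other strand and was at 0.444 ± 0.0561 TPM, with 23 to 64 counts per library. Counts were made by strand, per the file headers, so fragments of the opposite strand were not assigned to Traf3ip2.

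In the order from Tnip1 to Traf5, the ranges of 7 of the 9 neighbouring pairs did not overlap. The exceptions were Traf1 and Cyld, which changed places in 2 of 4 libraries, and Cyld and Traf2, whose order held in every library although their ranges overlap. By CPM, 6 of the 9 orders held.

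Gene length mattered most for Traf1. The deposited length is the union of the exons listed for a gene in the files (GENCODE M13), and for Traf1 it is 8819 bases, against 3436 for the longest protein-coding transcript. The deposited length of Traf1 is thus 2.57 times that of its coding transcript, beside a median of 1.24 times over all detected protein-coding genes. Transcript lengths were taken from GENCODE M21, so for some genes a single transcript is longer than the deposited length. With the coding transcript length, an alternative added after the levels were seen, Traf1 was at 67.9 ± 4.43 TPM, level with Tnfaip3 at 67.0 ± 1.09 and above Traf3 at 49.6 ± 2.45. Traf5, with a ratio of 2.32, moved to 18.8 ± 1.55 TPM and passed Traf3ip2 at 17.6 ± 0.476. Tnip1 and Traf6 stayed first and second, at 114 ± 2.35 and 99.3 ± 5.27 TPM. Which transcripts these cells use was not measured by gene counts.

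**Figure D2:**
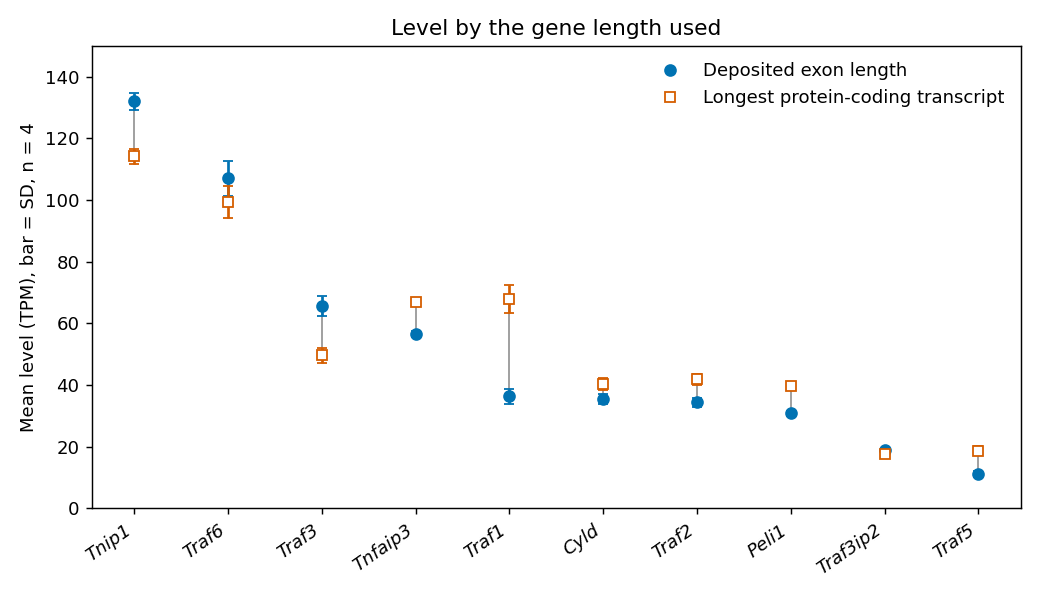
Mean TPM over 4 libraries (linear axis, bars are SD) with the deposited exon length (filled circles) and with the longest protein-coding transcript (open squares). Traf1 moves from 36.4 to 67.9 TPM and Traf5 from 11.1 to 18.8 TPM, while Traf3 falls below Tnfaip3.

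A first set of comparisons asked how each protein's gene stood against that of a partner, substrate or relative in the same library. For 15 pairs the log2 ratio of TPM, after adding 0.1 to each value, was tested by an exact permutation of its sign over libraries (two-sided). In 14 pairs all 4 libraries had the same order. Each of these had an exact p of 0.125 (2 of the 16 patterns), the smallest that 4 libraries allow, and 0.134 after Benjamini-Hochberg adjustment over 15 pairs. No pair could pass 0.05 in this design. The exception was Traf1 over Traf2, with a log2 ratio of 0.08 ± 0.10 (exact permutation p = 0.25).

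Within the TRAF family, Traf6 exceeded Traf2 by a log2 ratio of 1.63 ± 0.05 (2.26 in CPM) and Traf3 exceeded Traf2 by 0.93 ± 0.02, while Traf5 was below Traf2 with -1.62 ± 0.12 (-0.81 with the longest annotated transcript). The ratio of Traf3 to Traf2 had the smallest spread of all 15, between 0.90 and 0.94 in single libraries. By coding transcript length it was 0.24, in the same direction, and that of Traf1 to Traf2 was 0.69. Traf2 stood slightly above Birc2, the gene of its partner cIAP1, by 0.23 ± 0.09. Traf3 exceeded Map3k14, the gene of NIK, by 1.46 ± 0.04.

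Around the IL-17 receptor, Traf3ip2 was below Il17ra (31.0 ± 1.24 TPM), the shared receptor chain, with a log2 ratio of -0.72 ± 0.05 (-1.95 in CPM), and below Traf6 with -2.50 ± 0.08 (-3.60 in CPM). Peli1 was below Traf6 with -1.79 ± 0.05. Il17rc, the second chain of the receptor for IL-17A and IL-17F, had 7, 5, 7 and 3 counts in replicates 1 to 4, or 0.178 ± 0.0928 TPM. The adaptor and the shared chain were thus well detected, while the second chain lay close to the floor of 3 counts. Of the 5 IL-17 receptor genes, Il17ra and Il17re (2.30 ± 0.233) were at 1 TPM or more in every library.

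For the protease MALT1, which cleaves A20 and CYLD, Tnfaip3 was below Malt1 with a log2 ratio of -2.99 ± 0.07 and Cyld below it with -3.66 ± 0.03. With coding transcript lengths these were -2.21 and -2.94, where the length of Malt1 is 5331 bases, against 5073 deposited. In CPM the ratio of Cyld to Malt1 was -2.35. Tnfaip3 was also below Nfkbia, the gene of the NF-kappaB inhibitor IkB-alpha, by a log2 ratio of -3.66 ± 0.06 (-2.98 with coding lengths, -1.50 in CPM). Tnip1 stood above Tnip2, the gene of the related ABIN2, by 0.37 ± 0.10.

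**Figure D3:**
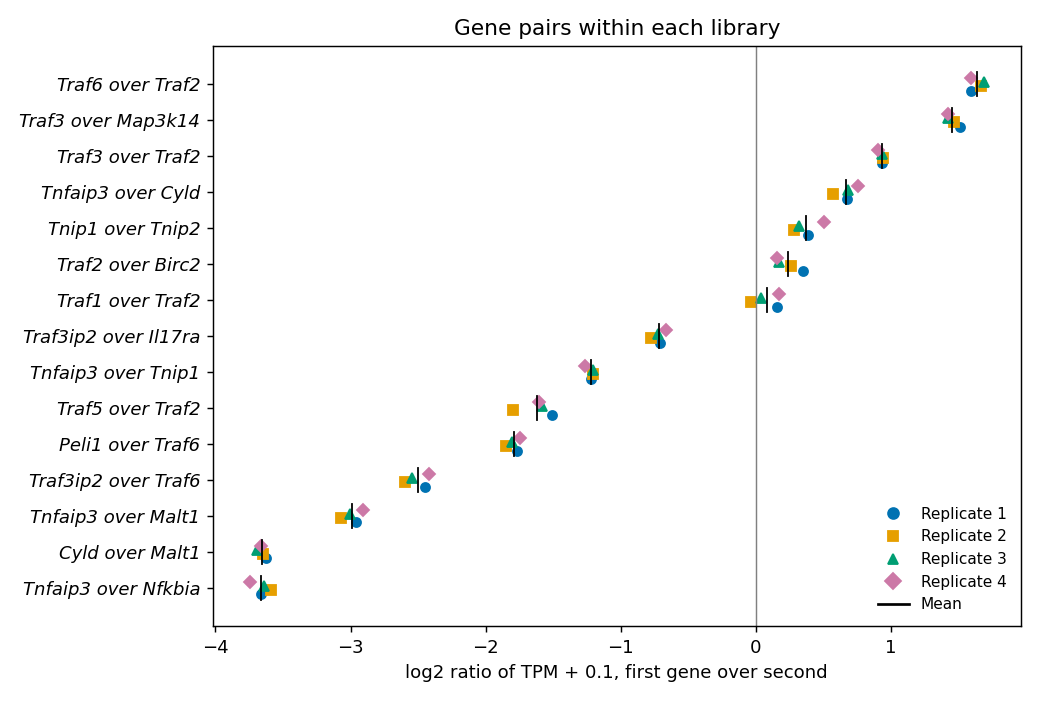
Log2 ratio of TPM + 0.1, first gene over second, for 15 pairs in each of 4 libraries, with the mean as a vertical line and 0 as no difference. Every pair but Traf1 over Traf2 lies on one side of 0 in all 4 libraries.

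Together with Traf4 (140 ± 3.14 TPM) and Traf7 (92.8 ± 3.15 TPM), the 5 TRAF members make up the TRAF family. As shares of the summed TPM of these 7 genes, Traf4 held 28.7% ± 0.785, Traf6 between 20.7% and 22.8% and Traf7 19.0% ± 0.524. Traf3 followed with 13.5% ± 0.433, Traf1 with 7.48% ± 0.469, Traf2 with 7.06% ± 0.149 and Traf5 with 2.28% ± 0.193 (SD, n = 4). These shares use the deposited lengths, and with coding transcript lengths Traf1 (67.9 TPM) stood above Traf3 (49.6 TPM). Traf4, a family member that binds few TNF receptors, was thus the most abundant TRAF gene per length in all 4 libraries. It was 1.24 to 1.44 times Traf6, a ratio chosen after its values were seen, though in CPM it was 0.547 times Traf6. The 7 genes summed to between 475 and 499 TPM.

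A second comparison asked which members varied between libraries by more than noise. With edgeR's fit across 12434 genes, the call was a Poisson deviance with Benjamini-Hochberg adjusted p under 0.05 and a highest CPM at least 2 times the lowest. By that rule 0 of the 10 members were called, against 1.74% of all genes tested. The largest ratio of highest to lowest among them was 1.20, for Traf5, and the smallest 1.03, for Tnfaip3. Their median ratio was 1.09, beside 1.08 for the 6884 genes within the same range of CPM.

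With no ratio asked, the Poisson deviance called 4 of 10 members, Traf6, Traf1, Cyld and Traf3 (adjusted p = 2.01e-15, 2.04e-07, 2.28e-06 and 3.70e-06), beside 36.6% of all genes, so this share is near the background. Without replicate 4 it called 3. At edgeR's trended dispersion, which allows for spread between replicates, 0 members were called with no ratio asked (0 at an unadjusted p under 0.05), against 0.523% of all genes. With the ratio of 2 it was again 0 members, against 0.145%. The lowest unadjusted p among the members at that dispersion was that of Traf1, 0.0506. The dispersion was estimated from these same 4 libraries as 1 group, so the usual spread between them is already in it. Of all genes tested, 4.48% had an unadjusted p under 0.05 by this deviance. The 0 calls therefore do not show that the members did not vary.

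Small shifts were shared by several members. Replicate 4 was the lowest library for 5 members (Traf2, Traf3, Traf6, Cyld and Peli1) and replicate 2 the highest for the same 5, beside 29.7% and 26.3% of detected protein-coding genes. By contrast Tnfaip3 and Traf5 were highest in replicate 1 and lowest in replicate 2, which hold singly for 34.4% and 23.4% of those genes. The share of all genes with both extremes in the same replicates was not taken, so neither pattern is shown to be particular to the members. Traf2, Traf3, Traf3ip2, Cyld and Peli1 were higher in both of replicates 1 and 2 than in either of replicates 3 and 4, which held for 24.9% of detected protein-coding genes, and 0 members had the opposite order, which held for 12.9%. That is also the division by Xist, whose part in these small differences was not tested. In log2(CPM + 0.5), the median difference of the members from their means was 0.03, 0.01, close to 0 and -0.04 in replicates 1 to 4. Over all detected protein-coding genes it was within 0.01 of 0 in each replicate.

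**Figure D4:**
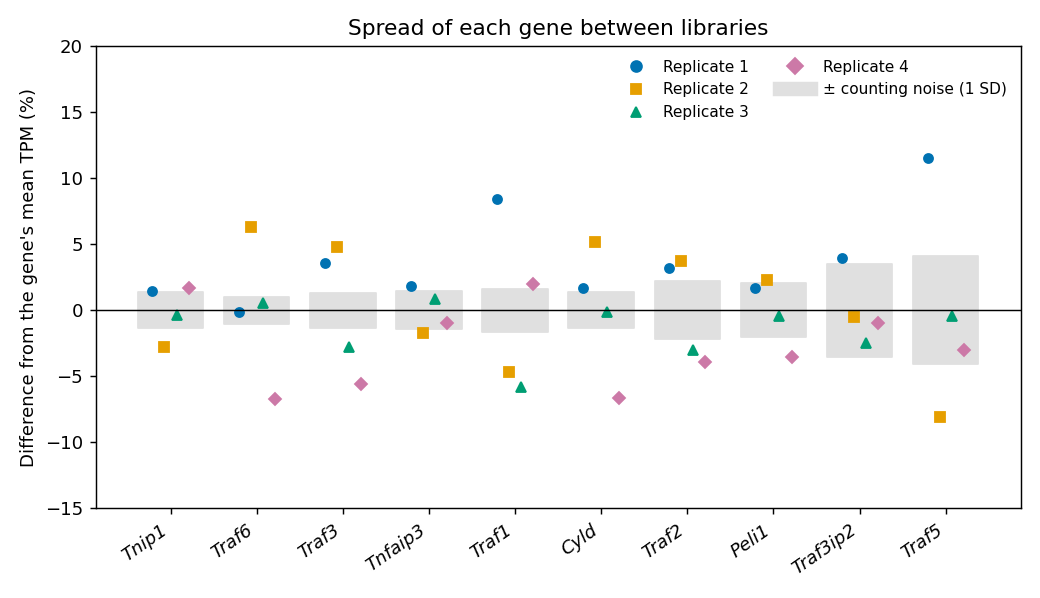
Difference of each library from the gene's mean TPM, in percent, for the 10 members. Grey bands are 1 SD of counting noise. Points of Tnfaip3, Peli1 and Traf3ip2 stay close to the band, while those of Traf6, Traf3, Cyld, Traf1 and Traf5 reach farther from it, up to replicate 1 of Traf5.

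The genes around the members were described from 11 fixed lists, which share some genes. Of 67 genes in them that are no member, 57 were at 1 TPM or more in every library, beside 47% of all protein-coding genes. The lists were chosen with earlier results of these data known, so this is no independent comparison. In the CBM complex, Malt1 was at 449 ± 20.2 TPM, above every member in every library, while Bcl10, its partner, was at 41.2 ± 0.852 TPM. Malt1 was thus between 10.5 and 11.4 times Bcl10 in single libraries, and 4.43 times with coding transcript lengths. This ratio was chosen after its values were seen. Prkcq, the kinase upstream, was at 59.2 ± 1.76 TPM, whereas Card9, Card10 and Card14, CARD genes used mainly in other cells, were under 1 TPM.

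Substrates of MALT1 were detected in 8 of 8 cases, with a median of 56.7 TPM. By mean, Tnfaip3 (56.5) and Cyld (35.5) lay below Rbck1 (107 ± 1.89) and Zc3h12a (72.7 ± 2.26), which encodes the RNase Regnase-1. Rc3h1 (56.8 ± 1.3), which encodes Roquin-1, was level with Tnfaip3, and Bcl10 (41.2) lay between Tnfaip3 and Cyld. The linear ubiquitin ligase, whose chains ABIN1 and A20 bind, had all 3 subunits present, with Rnf31 at 31.5 ± 1.65 and Sharpin at 27.2 ± 0.562 TPM beside Rbck1.

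Among partners of A20 and other editors of ubiquitin chains, 7 of 8 were detected. Otulin, a deubiquitinase of linear chains, was highest at 135 ± 3.57 TPM. Tax1bp1 (48.6 ± 0.955), Itch (42.4 ± 0.817) and Rnf11 (31.9 ± 0.967), which form a complex with A20, lay between 31.1 and 49.5 TPM in every library. Tnip3, the gene of the related ABIN3, was at 0.146 ± 0.0591 TPM.

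In the TNF receptor complex all 6 genes were detected. Birc3 (96.1 ± 4.23 TPM), the gene of cIAP2, was between 3.12 and 3.67 times Birc2 (29.2 ± 0.908), a ratio chosen after its values were seen. Of the receptors that TRAF proteins bind, 7 of 8 were detected. Tnfrsf4, the gene of OX40, led at 923 ± 53.4 TPM, then Tnfrsf18 (134 ± 6.71), the gene of GITR, and Tnfrsf25 (121 ± 8.22), while Ltbr was at 0.369 ± 0.0612.

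All 8 genes of the kinase list were detected, led by Map3k7 (128 ± 3.58 TPM), the TAK1 gene. Chuk, the gene of IKK-alpha, was at 84.9 ± 3.02 and Ikbkb, the gene of IKK-beta, at 17.8 ± 0.29 TPM. That ratio, between 4.50 and 5.08 in single libraries, was 1.45 with coding transcript lengths and 1.27 in CPM. It was chosen after its values were seen. In the IL-1 and Toll-like receptor list, 7 of 9 were detected, with Myd88 at 159 ± 7.03 TPM and Irak1 at 57.7 ± 2.18, and with Peli2, a relative of Peli1, at 19.9 ± 2.81. Ube2v1 (2.50 ± 0.053) is uncertain, since it shares 61.5% of its exon bases with other genes on its strand and such fragments were not counted. All 8 NF-kappaB subunits and inhibitors were detected, with a median of 139 TPM.

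**Figure D5:**
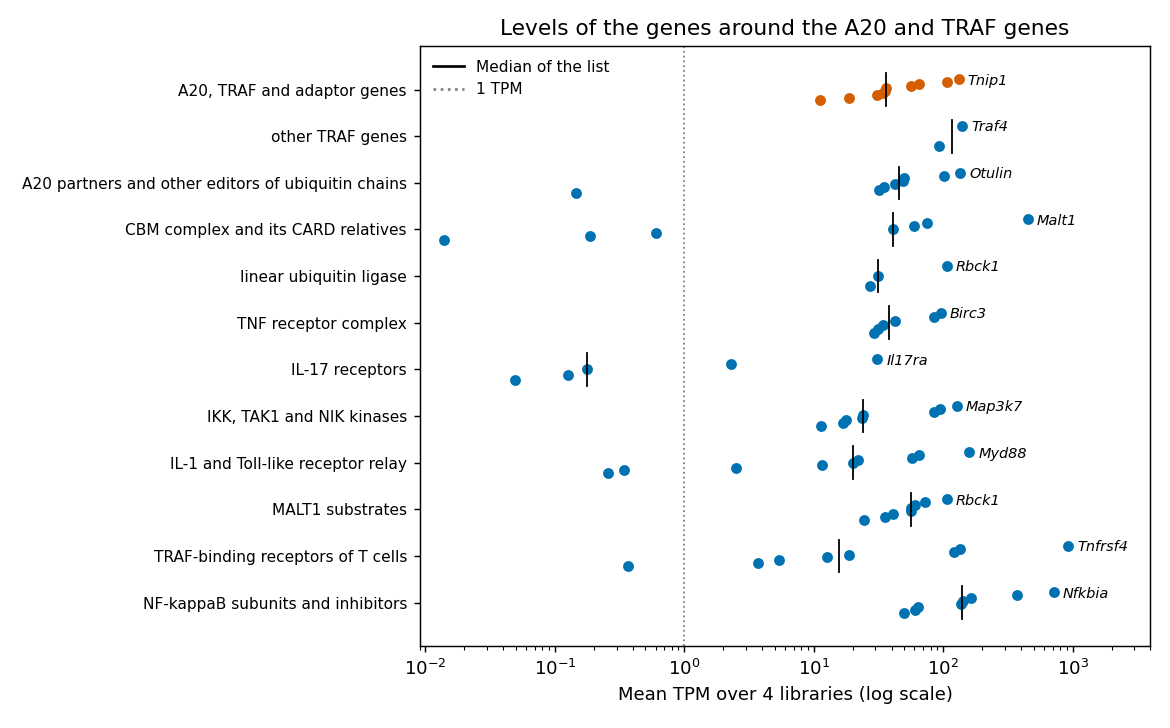
Mean TPM over 4 libraries (log axis) of the 10 members (orange) and of 11 lists of related genes (blue), with the median of each list as a black line, 1 TPM dotted and the highest gene named. The members span 11.1 to 132 TPM, and Malt1, Tnfrsf4 and Nfkbia lie above them all.

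Other genes with the most similar levels across the 4 libraries were named by the smallest root mean square difference in log2(TPM + 0.1), over autosomal protein-coding genes outside the lists. The nearest were Ap3d1 and Pih1d1 for Tnfaip3 (0.016 and 0.0166), Emc2 and B4galnt1 for Tnip1 and Snx6 and Msh6 for Traf6. For Traf3 they were Tmem9b and Tex10, for Traf1 Cox15 and Plin3, for Cyld Slc17a9 and Cul5 and for Traf2 Hspa4l and Pip4k2c. For Peli1 they were Commd7 and Arel1, for Traf3ip2 Plxna1 and Mvk and for Traf5 Slc35d2 and Cdan1. The measure reflects level above all.

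Of the 10 members, 0 shared a 100-base window of their longest coding transcript with another gene's transcripts. On the same strand, Traf5 alone of the members shared exon bases with another gene, 65 of its 4566, with Mir3473c. Gstp-ps, a pseudogene on the strand of Traf5 and within its span, had 15 to 36 counts per library, against 483 to 884 for Traf5.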

How the data were processed

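Total RNA of 4 libraries of mouse Th17 cells was sequenced, and the linked library protocol names poly(A) selection. The authors deposited raw fragment counts per gene, made per the file headers with featureCounts 1.4.6-p4 on reverse-stranded pairs with both ends mapped, over exons of GENCODE M13 on mm10. The command held no option for fragments that map to several places or genes, so these were left out. No source used here names the aligner. Each deposited table also lists exon length.

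Symbols came from GENCODE M21 by gene ID without version (50376 of 50600 matched). TPM was computed from counts and the deposited length; alternative transcript lengths were those of GENCODE M21. Variation was tested with edgeR 4.0.16 in R 4.3.3 (TMM, default filter, which asks for the level in every library, intercept only). The deviance had 3 degrees of freedom, and the prior count was 0.5. DESeq2 1.42.0 gave alternative size factors. The Poisson deviance counts spread between replicates as variation, and the trended dispersion allows for it. Of the list genes, 1 is not reported here. Named genes were the 10 members, the genes of the fixed lists, the 2 nearest genes of each member, and genes overlapping a member. Members and lists were chosen with earlier results of these data known. Alternatives were other lengths, pseudocounts, thresholds, noise models, filters, and each replicate left out.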

Additional observations from a re-analysis of the deposited data

Results flagged for a closer look

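In 82 genes and ratios examined with Dixon's test, 3 had a library far from the other 3 at the 95% level, where chance flags about 1 in 20. Birc2 was lowest in replicate 1 at 27.9 TPM, against 29.6 to 29.8 in the others. Ikbkb was lowest in replicate 2 at 17.3 TPM, against at least 17.9 in the others. Tnfrsf8 was highest in replicate 2 at 5.82 TPM, against 5.22 to 5.32 in the others. None of the 10 A20, TRAF and adaptor genes and none of their 15 ratios was among them.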

How the results depend on the processing

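The median level of the 10 members, 36.0 TPM, was 48.1 TPM with the longest annotated transcript as length and 45.7 TPM with the longest protein-coding one. It was 37.2 TPM over protein-coding genes alone and between 35.3 and 36.3 TPM without each replicate. Of 135 combinations of a pair ratio and a setting, 134 kept the direction, but many of them could not have turned. In the 14 pairs with the same order in all 4 libraries, neither a pseudocount nor leaving out a replicate can reverse it. Only CPM and the other lengths could do so there, and Tnfaip3 over Cyld turned to -0.13 in CPM. In CPM the ratio also moved by over 1.5 times for Tnfaip3 over Nfkbia (-1.50), Tnfaip3 over Tnip1 (-0.19), Cyld over Malt1 (-2.35) and Traf6 over Traf2 (2.26). The same held for Traf1 over Traf2 (0.87), Traf3ip2 over Traf6 (-3.60) and Traf3ip2 over Il17ra (-1.95). With the longest annotated transcript the ratio did so for Traf5 over Traf2 (-0.81), Traf1 over Traf2 (1.13) and Cyld over Malt1 (-2.67). With the longest protein-coding transcript it moved for Tnfaip3 over Malt1 (-2.21), Cyld over Malt1 (-2.94) and Tnfaip3 over Nfkbia (-2.98). It also moved there for Traf1 over Traf2 (0.69) and Traf3 over Traf2 (0.24). The number of variable genes, 216, was 215 with DESeq2 size factors, 201 without genes of chromosomes X and Y, 486 with a ratio of 1.5, 4550 with no ratio and 1097 without the filter, and leaving out 1 replicate gave 141 to 156. At the trended dispersion it was 18, 65 with no ratio, and 91 with no ratio and without chromosomes X and Y. Members called stayed at 0 in each of these except with no ratio under the Poisson deviance (4). Of the 69 distinct genes of the lists, 59 passed 1 TPM, 56 passed 5 TPM and 59 passed 0.5 TPM. No paired analysis was possible because there is only 1 group. The protein-coding transcript length, and the joint setting without chromosomes X and Y, were added after seeing the data. With 4 libraries no pair test can pass 0.05, and gene counts cannot tell transcripts apart.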
